A study of Zea mays and Oryza sativa with 119 samples.

Results

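A set of 150 maize genes whose RNA was low at the leaf base, high in leaf section 4 and low again by section 9 was described along the maize leaf. The genes were chosen by their measured values. Among the 110005 features of the deposited table, 5621 had their highest section mean of log2(FPKM + 1) in section 4, and 1786 of these reached a section 4 mean of at least 10 FPKM (fragments normalised to transcript length and to the mapped fragments of the library). These 1786 candidates were ranked by the section 4 mean minus the larger of the means of sections 1 and 9, and the first 150 were taken, which left 1636 other candidates. The levels in sections 1, 4 and 9 are therefore a description of the choice and were not tested.

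The plants were seedlings of the maize inbred line B73, in which the third leaf was harvested at 9 days of age and divided along its length into 15 sections of 1 cm, labelled 1 to 4 and 6 to 16. Every section had 5 libraries, each from leaves of about 7 plants pooled, with replicates numbered 1, 2, 3, 4 and 6 and collected on different dates. There was no treatment and no mutant, and the groups differ only in the position of the section. The 44 rice libraries of 11 leaf sections were not used here. Replicate 2 of section 1, replicate 6 of section 3 and all of section 7 were left out by the rule, so 68 of 75 maize libraries entered it.

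A grass leaf grows from its base, so that cells are young at the base and older toward the tip, and a series of sections gives successive stages of cell differentiation. After cells stop elongating, vessel and fibre cells deposit a secondary wall of cellulose and xylan that is stiffened by lignin. Laccases and class III peroxidases oxidise lignin monomers in the wall so that they polymerise, and epidermal cells make the very-long-chain lipids of the surface wax as the leaf matures. RNA of a whole section is a mixture of cell types, in which fewer cells of a type and less RNA per cell cannot be told apart.

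Libraries differed in depth and a few stood apart. The deposited files give no read totals. From the smallest steps between low FPKM values, the relative depth of the 68 libraries ran from 0.125 to 1.87 times the median library, and 6.16% to 33.0% of the 23051 tested genes were at 0. The 7 libraries left out included the shallowest, at 0.00635. Over genes outside the set, 46 of the 68 libraries correlated best with the mean of their own section. The widest gap was that of replicate 2 of section 14, which correlated best with section 4 (r = 0.910, against 0.770 with its own section). Smaller gaps were those of replicate 4 of section 14 (0.951 with section 13, against 0.918), replicate 3 of section 16 (0.942 with section 12, against 0.917), replicate 4 of section 15 (0.933 with section 14, against 0.909) and replicate 4 of section 12 (0.923 with section 9, against 0.903). Among sections 1 to 8, replicate 6 of section 4 was slightly nearer to section 6 (0.938 against 0.932), replicate 6 of section 2 to section 3 (0.893 against 0.887) and replicate 6 of section 8 to section 9 (0.861 against 0.858).

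The summed level of the 150 genes traced a single rise and fall. They held 0.0489% ± 0.0100 of the library's FPKM in section 1 (SD, n = 4), 0.289% ± 0.0164 in section 2 (n = 5), 1.52% ± 0.154 in section 3 (n = 4), 2.54% ± 0.633 in section 4 (n = 5), 0.634% ± 0.0370 in section 6 (n = 5) and 0.0602% ± 0.0160 in section 9 (n = 5). In section 4 replicate 6 held 1.42% and the other 4 libraries 2.71% to 2.93%, so every section 4 library but replicate 6 was above all section 3 libraries, which ran from 1.32% to 1.70%. In section 8 replicate 2 held 0.339% and the other 4 libraries 0.0580% to 0.107%. From section 9 to the tip the share stayed between 0.0248% and 0.153% in all libraries but replicate 2 of section 14, which held 1.10%.

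**Figure D1:**
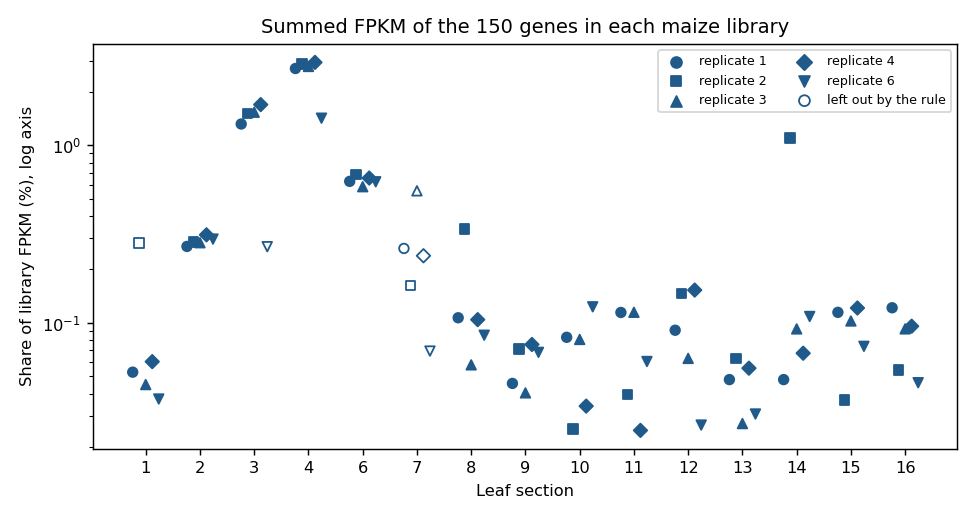
Share of each maize library's summed FPKM held by the 150 genes (%, log axis) by leaf section, with one symbol per replicate number and open symbols for the 7 libraries left out by the rule. The share is highest in section 4, where replicate 6 (1.42%) lies below the other 4 libraries, and replicate 2 of section 14 (1.10%) lies far above the other libraries of that section.

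The library of section 14 that stood apart did so across the set. In it 140 of the 150 genes were above the other 4 libraries of section 14. The median gene of the set was at 20.9 FPKM there, against 0.852 FPKM for the mean of the other 4 libraries and 82.6 FPKM in section 4 of the same replicate. Replicate 6 of section 4 was lower than the mean of its 4 companions for 146 genes, at a median of 43.2% of that mean, against 75.6% over all tested genes. Whether these libraries hold tissue of another position was not tested. The same counts over all tested genes are not given, so the 140 and the 146 are not read as particular to the set.

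The median gene of the set was at 0.334 FPKM in section 1, 5.03 in section 2, 37.4 in section 3, 73.7 in section 4, 13.1 in section 6, 2.45 in section 8, 0.578 in section 9 and 1.22 in section 16. Section 4 means ran from 12.2 to 2696 FPKM, and 64 genes reached 100 FPKM. For 83 genes the means of sections 1 and 9 were both under 1 FPKM. In 146 genes every section 4 library lay above every library of sections 1 and 9, which the rule favours by construction.

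**Figure D2:**
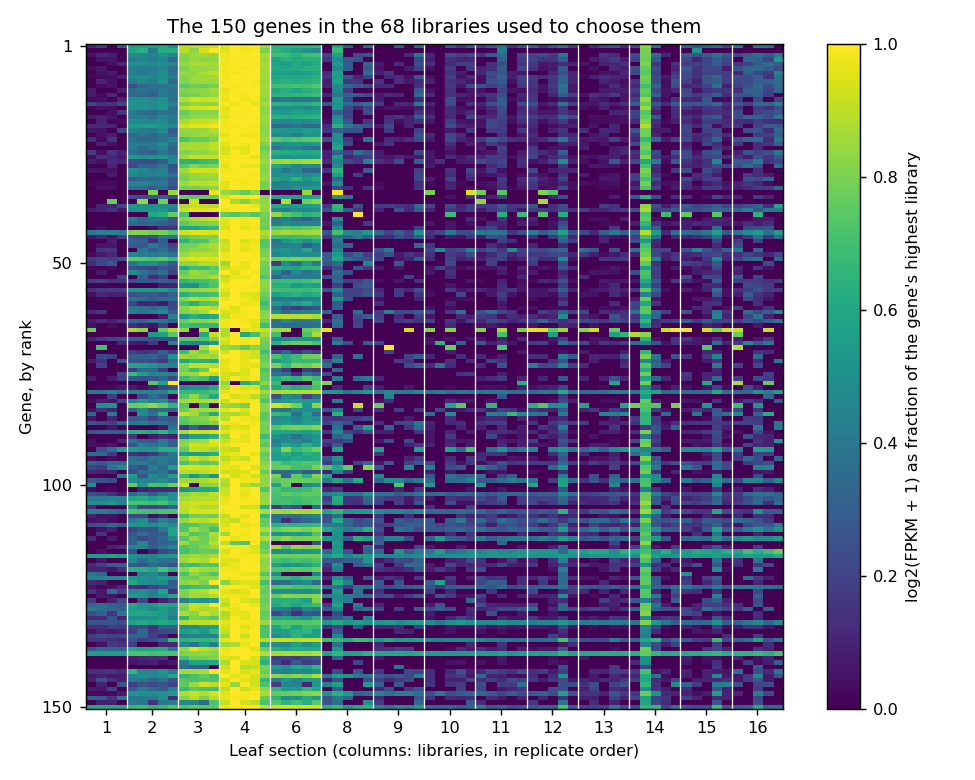
Level of each of the 150 genes (rows, by rank) in the 68 libraries used (columns, grouped by leaf section in replicate order), as log2(FPKM + 1) divided by the gene's highest library. Most rows are brightest in section 4 and next brightest in section 3, and replicate 2 of section 14 forms a bright column.

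Levels on the base side of section 4 were compared with those on the tip side. The labels run from 4 to 6 without a 5, so section 6 may lie farther from section 4 than section 3 does, and no section between them was analysed here. Counting section 4 itself, 59 genes had 1 section at or above 50% of their section 4 mean, 81 genes had 2, 8 genes had 3 and the other 2 genes had 5 or more. Section 3 reached 50% of section 4 without section 6 doing so in 75 genes, section 6 without section 3 in 11, both in 4 and neither in 60. Over the set the median level was 51.8% of section 4 in section 3 and 18.5% in section 6.

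The ranking value, a log2 difference, ran from 3.53 to 9.49 with a median of 4.88. The first gene, GRMZM6G132224, has no name in the reference table. Its FPKM in replicates 1, 2, 3 and 4 of section 3 was 1212, 1392, 1476 and 1698, and in replicates 1, 2, 3, 4 and 6 of section 4 it was 2207, 3111, 2690, 2936 and 1051. In section 6 the same 5 replicates had 179, 187, 180, 196 and 218 FPKM. Section 6 therefore lay below section 3 in every library, while replicate 6 of section 4 was lower than all 4 section 3 libraries. The gene with the highest section 4 level, GRMZM2G125441 at 2696 ± 809 FPKM (SD, n = 5), ranked at 43 because it was already at 31.9 ± 4.04 FPKM in section 1 (n = 4).

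At the lower end, the last genes taken were GRMZM2G321010, GRMZM2G129929 and GRMZM2G143883 with ranking values of 3.54, 3.53 and 3.53. The first genes not taken were GRMZM5G834421, GRMZM2G152894 and GRMZM2G335323 with 3.52, 3.52 and 3.51. The boundary thus falls within a continuous range of values.

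Only 8 of the 150 genes carry a descriptive name in the reference table, and 71 (47.3%) have any entry, against 56.4% of the tested genes. The named ones are 3 laccases, a class III peroxidase, a wax enzyme, a permease, a wall-associated kinase and a gene listed as SAG, for which no role is given here. How reads shared by near-identical copies were divided is not given in the sources used here, so the levels of single laccase genes are uncertain to that extent.

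Among the laccases, Laccase-13 (GRMZM2G132169) ranked at 8. Its FPKM was 239, 294, 300 and 319 in replicates 1 to 4 of section 3, then 710, 814, 779, 797 and 317 in the 5 section 4 libraries, and 55.1, 59.9, 57.0, 56.1 and 70.7 in section 6. All section 6 libraries were below all section 3 libraries, and replicate 6 was the low library of section 4, at 317 FPKM. The log2 change from section 3 to section 6 was -2.25 ± 0.73 (SE, limma adjusted p = 0.0155). That call was lost without replicate 3 (limma adjusted p = 0.0885), without replicate 4 (0.0678), with a pseudocount of 0.1 (0.136) and with all 75 libraries (0.273), though the change stayed negative each time.

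The laccase lac5 (GRMZM2G367668) was nearly as high in section 3 as in section 4. It had 22.5, 21.9, 23.4 and 27.4 FPKM in the section 3 libraries, and 25.5, 27.2, 28.6, 34.7 and 14.5 in section 4. Section 6 held 2.52, 2.46, 3.03, 1.56 and 1.76 FPKM, far below section 3 and without overlap. The fall from section 3 to section 6 was -2.94 ± 0.38 on the log2 scale (limma adjusted p = 2.30e-08).

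The last laccase of the set, Laccase-17 (GRMZM2G305526), had a broader peak. It had 18.1, 23.1, 21.6 and 24.6 FPKM in section 3, 34.7, 35.3, 33.4, 38.1 and 17.6 in section 4 and 15.6, 19.9, 18.8, 19.4 and 20.9 in section 6. Sections 3 and 6 overlapped, and their log2 difference of -0.19 ± 0.45 did not pass the test (limma adjusted p = 0.822).

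The peroxidase PER66 (GRMZM2G133475) was at 0 in all section 1 and all section 9 libraries used. Its FPKM was 6.30, 5.72, 12.3 and 16.1 in section 3, 48.3, 50.6, 51.0, 48.6 and 25.8 in section 4, and 11.2, 10.7, 7.88, 8.99 and 7.72 in section 6. The sections on either side overlapped, with a log2 difference of -0.01 ± 0.34 (limma adjusted p = 1). Its lowest section 4 library was again replicate 6.

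The wax gene gl4a (GRMZM2G003501), named for glossy4, a ketoacyl-CoA synthase that elongates fatty acids for the leaf surface wax, peaked in section 4 but stayed high in section 6. It had 61.0, 72.6, 70.9 and 82.5 FPKM in section 3, 525, 648, 571, 608 and 319 in section 4 and 370, 393, 344, 386 and 395 in section 6. All section 6 libraries were above all section 3 libraries, and section 6 was also above the low replicate 6 of section 4. The log2 change from section 3 to section 6 was 2.39 ± 0.70 (limma adjusted p = 0.00691), which without replicate 1 was 2.32 (0.0549) and with all 75 libraries 2.21 (0.0897).

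Further out, gl4a was at 4.15, 2.33, 3.32, 5.84 and 79.2 FPKM in section 2 and at 89.6, 76.2, 51.4, 89.1 and 76.4 in section 8. Section 8 was above 4 of the 5 section 2 libraries, and replicate 6 of section 2 lay within the range of section 8. The log2 change from section 2 to section 8 was 3.19 ± 0.66 (limma adjusted p = 3.42e-05).

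LPE1 (GRMZM5G858417), the maize leaf permease of the purine and ascorbate transporter family, fell early. It had 128, 171, 168 and 159 FPKM in section 3, 239, 260, 273, 231 and 102 in section 4, and 18.9, 17.0, 19.2, 17.7 and 20.4 in section 6. Section 6 lay wholly below section 3, with a log2 change of -3.00 ± 0.59 (limma adjusted p = 6.47e-05). Section 8 was lower than section 2 by the same test, at -2.45 (limma adjusted p = 0.000141), although replicate 2 of section 8 had 22.3 FPKM and the other 4 libraries of section 8 0.556 to 1.85.

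The wall-associated kinase WAK-RLK2 (GRMZM2G144028), of a receptor family that spans the plasma membrane and contacts the wall, was the lowest of the 8 in section 4. It had 9.82, 9.64, 10.0 and 9.56 FPKM in section 3, 19.6, 25.4, 21.6, 20.2 and 7.76 in section 4 and 2.67, 4.55, 3.52, 4.97 and 5.00 in section 6. Section 6 was below section 3 in every library, by -1.09 ± 0.31 on the log2 scale (limma adjusted p = 0.00503), close to the threshold of 1. Without replicate 1 the change was -0.97 (limma adjusted p = 0.0677), with all 75 libraries it was -0.40 (limma adjusted p = 0.707), and both scaling alternatives and a pseudocount of 0.1 ended the call as well.

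SAG (GRMZM2G041175) had 16.3, 28.5, 22.3 and 15.1 FPKM in section 3, 44.3, 50.2, 46.9, 49.6 and 30.3 in section 4 and 18.7, 23.5, 24.1, 21.6 and 26.6 in section 6. Its levels in sections 3 and 6 overlapped, and the log2 difference of 0.18 did not pass the test (limma adjusted p = 0.817). The difference between sections 8 and 2 was 1.13 ± 0.39 (limma adjusted p = 0.0108). That call was lost without replicate 1 (0.84, limma adjusted p = 0.130) and with only the 2 sections compared (1.13, limma adjusted p = 0.0577).

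**Figure D3:**
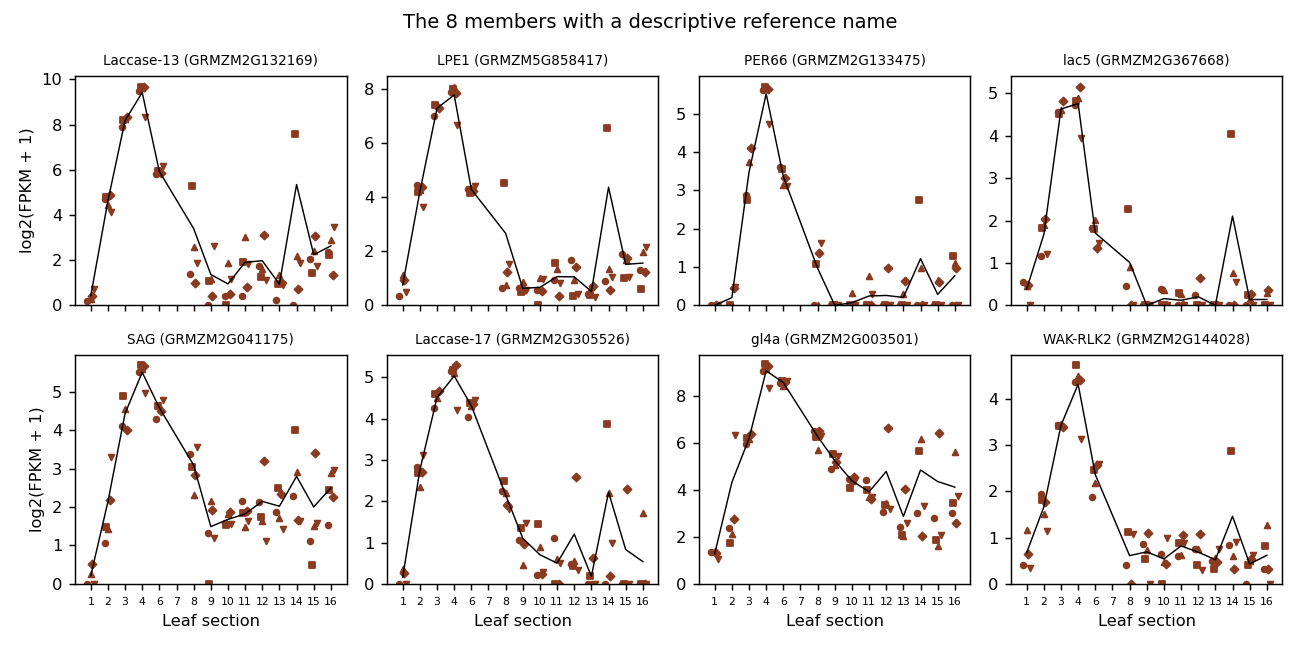
Level in log2(FPKM + 1) by leaf section for the 8 genes with a descriptive name, with one point per library used and a line through the section means. All 8 peak in section 4, and the mean of gl4a is still at 378 FPKM in section 6 but at 76.5 in section 8. Replicate 2 of section 14 is the high point of that section for Laccase-13, LPE1, PER66, lac5, SAG, Laccase-17 and WAK-RLK2.

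The sections on either side of section 4 were compared next. Sections 3 and 6 do not enter the ranking and are only bounded above by section 4, so the direction between them was not fixed by the choice, although each lies next to sections that were. Of the 150 genes, 78 were lower and 7 higher in section 6 than in section 3, and 65 were not called (limma on log2(FPKM + 1), with adjusted p under 0.05 and a log2 change of 1 or more either way). The same calls were made for 10.9% of all 23051 tested genes in the lower and 5.4% in the higher direction. All 150 genes passed the filter of a mean of 1 FPKM.

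The median log2 change of the 150 genes was -1.55, against -0.12 over all tested genes and 0 over the other candidates. Among the 1629 other candidates that were tested, 85 were lower and 32 higher. Every section 6 library lay below every section 3 library for 103 of the 150 genes, against 21.9% of all tested genes, and above it for 15 genes, against 11.5%. Within replicates 1, 2, 3 and 4, the median change over the set was -1.43, -1.54, -1.63 and -1.64. In section 6, 113, 121, 120 and 121 genes were lower (75.3%, 80.7%, 80.0% and 80.7%). Over all tested genes the medians were -0.12, -0.18, -0.16 and -0.10, and 55.4%, 57.3%, 57.6% and 53.1% were lower. All 4 collection dates thus gave the same direction, which all tested genes shared to a smaller extent. Replicate 6 has no section 3 library in use. With a pseudocount of 0.1 the lower genes of the set numbered 31 (20.7%, against 6.8% over all tested genes), and with all 75 libraries 29 (19.3%, against 4.42%). With upper quartile scaling the calls over all tested genes turned to 1908 higher and 1625 lower, while in the set 10 were higher and 67 lower.

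The genes that fell most from section 3 to section 6 have no descriptive name. GRMZM2G005991 had 219, 250, 249 and 287 FPKM in section 3, 296, 302, 318, 288 and 122 in section 4 and 6.05, 7.11, 7.85, 5.64 and 6.65 in section 6. Its section 3 libraries were thus about as high as its section 4 libraries, and the fall of -5.04 ± 0.73 on the log2 scale (limma adjusted p = 2.69e-07) was the largest among the called members. GRMZM2G070178 had 172, 223, 207 and 217 FPKM in section 3 and 7.91, 9.03, 8.22, 8.52 and 9.11 in section 6, a change of -4.42 ± 0.71 (limma adjusted p = 2.12e-06). The changes of GRMZM2G083046 and GRMZM2G033820 were -4.18 ± 0.51 and -3.87 ± 0.67 (limma adjusted p = 5.08e-09 and 8.94e-06).

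Among the genes that rose, GRMZM2G017011 had 0.966, 2.97, 1.09 and 1.51 FPKM in section 3, 44.1, 56.0, 53.6, 69.2 and 27.6 in section 4 and 22.1, 27.6, 29.2, 26.4 and 32.0 in section 6. No library of section 3 reached any library of section 6, with a log2 change of 3.48 ± 0.54 (limma adjusted p = 8.55e-07). GRMZM2G170044 had 72.2, 73.1, 75.9 and 98.3 FPKM in section 3 and 277, 286, 289, 302 and 338 in section 6, a change of 1.90 ± 0.43 (limma adjusted p = 0.000417). Both genes, with gl4a, are among the 11 whose section 6 but not section 3 reached 50% of section 4.

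GRMZM6G132224, the first-ranked gene, was not called in this comparison although its libraries did not overlap. Its log2 change was -2.90 ± 1.18 (limma adjusted p = 0.0614). All sections share one estimate of the spread in the fit, and the gene varied widely in section 14, from 0 FPKM in replicates 4 and 6 to 821 in replicate 2. With sections 3 and 6 alone, an alternative chosen after the data were seen, the limma adjusted p was 3.04e-07.

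One step further out, section 8 was compared with section 2. By limma, 78 of the 150 genes were lower and 3 higher in section 8, against 35.7% lower and 8.93% higher over all tested genes. The 3 higher genes were gl4a, SAG and GRMZM5G888061. The last changed by 1.10 (limma adjusted p = 0.0273), a call lost without replicate 1 (0.1005), replicate 2 (0.0617) or replicate 4 (0.127), with a pseudocount of 0.1 (0.121), with all 75 libraries (0.107) and with only the 2 sections compared (0.0527). The median log2 change was -1.23 in the set and -0.67 over all tested genes. In 21 genes (14%) every section 8 library lay below every section 2 library, against 28.8% of all tested genes, and in 0 genes above it, against 7.79%.

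Replicate 2 of section 8 was high in the set. Within replicate 2 the set went the other way, with a median log2 difference of 0.32, against -0.47 over all tested genes. In that replicate 91 genes (60.7%) were higher in section 8, against 30.6% of all tested genes. Within replicates 1, 3, 4 and 6 the medians were -1.38, -1.33, -1.77 and -1.28, against -0.51, -0.64, -0.68 and -0.56 over all tested genes. There 118, 127, 129 and 119 genes were lower (78.7%, 84.7%, 86.0% and 79.3%), against 64.1%, 65.6%, 65.3% and 64.2% of all tested genes. In replicate 2 of section 8, 19 of the 150 genes were at 0, against 70 to 85 in the other 4 libraries of section 8. Over genes outside the set that library correlated best with section 8 (r = 0.877). Without that library, an alternative chosen after the data were seen, 92 genes were lower and 3 higher (61.3% and 2%, against 37.3% and 9.11% over all tested genes). After quantile normalization, which moved the median of all tested genes from -0.67 to 0.06, 29 were lower (19.3%) and 11 higher (7.33%), against 17.2% in each direction over all tested genes, so the lower share of the set was then near that of all genes.

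Among the genes that fell from section 2 to section 8, GRMZM2G367701 changed by -3.71 ± 0.69 (limma adjusted p = 5.72e-06) and GRMZM5G861410 by -4.31 ± 0.96 (limma adjusted p = 0.000106). For GRMZM5G861410 replicate 2 of section 8 had 106 FPKM, above every section 2 library (14.0 to 74.6). The other section 8 libraries were at 0. GRMZM2G125441, the gene with the highest section 4 level, was at 683, 688, 589, 626 and 357 FPKM in section 2 and at 7.02, 294, 44.1, 34.6 and 81.5 in section 8. It was lower in section 8 in every library, with a log2 change of -3.52 ± 0.88 (limma adjusted p = 0.000485), and its highest section 8 library was replicate 2.

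**Figure D4:**
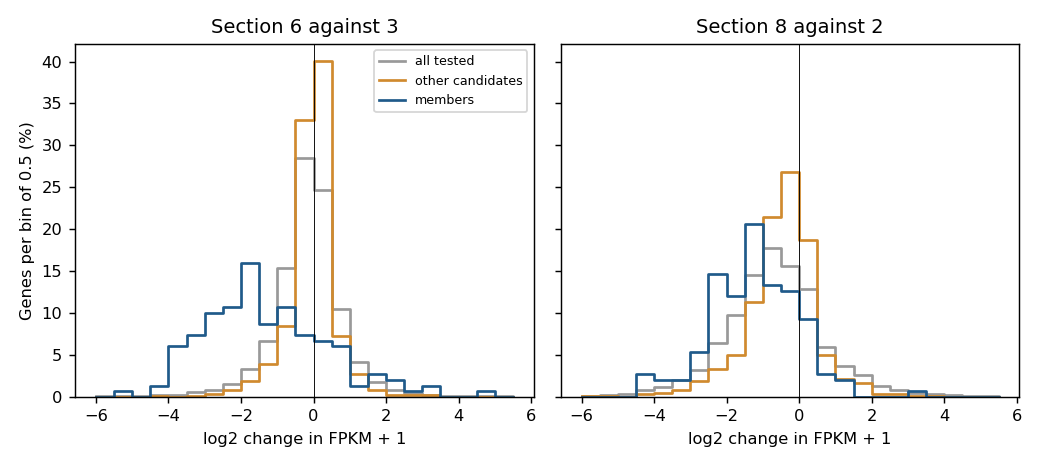
Distribution of log2 changes in FPKM + 1 from section 3 to 6 (left) and from section 2 to 8 (right), as the percentage of genes per bin of 0.5, for the 150 genes, the other candidates and all tested genes. In the left panel the 150 genes centre at a median of -1.55, against -0.12 for all tested genes, and in the right panel at -1.23, against -0.67.

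In the outer leaf the comparison was not informative for the set. Between sections 15 and 11, limma called 0 of the 150 genes in either direction, against 1.09% higher and 0.542% lower over all tested genes, and 3 of the 150 had an unadjusted p under 0.05. The median log2 difference was 0.15 in the set and 0.10 over all tested genes. No alternative called more than 1 gene in either direction. At these shares over all tested genes, 150 genes would hold few calls or 0, so the 0 is not read as a result. The rule favours genes that are low in section 9. The median gene was at 0.578 FPKM there and 1.22 FPKM in section 16, which leaves little room for a log2 fall of 1. The fit shares one spread over all sections, and replicate 2 of section 14 was above that section's other 4 libraries for 140 genes. The test therefore cannot show that the set was unchanged.

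Genes of related pathways were counted by their names in the reference table, whether or not they belonged to the set. The set is 150 of the 23051 tested genes, and 8 of its genes carry a descriptive name, against 1900 of all tested genes. At these shares a list of the sizes used here would hold few members or 0. A count of 0 members is therefore near the share over all genes and is not read as a result. The falls and rises counted below are calls, which over all tested genes were 10.9% lower and 5.4% higher in section 6 than in section 3. For section 8 against 2 those shares were 35.7% and 8.93%. The share of all tested genes with their highest mean in each section is not given, so the counts of peaks are description only. Of 8 laccases tested, 3 were in the set. The section mean was highest in section 3 for 4 laccases, in section 4 for 3 and in section 10 for LAC1 (GRMZM5G842071). From section 3 to section 6, 6 laccases fell and 1 rose, with a median log2 change of -3.06. The largest fall was that of Lac1, also listed as lac2 (GRMZM2G146152), from 72.6 FPKM in section 3 to 0.999 in section 6 (-5.21 ± 0.53, limma adjusted p = 4.89e-11). LAC1 rose by 2.27 ± 0.31 (limma adjusted p = 6.56e-08).

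Enzymes that make the lignin monomers, among them phenylalanine ammonia-lyase, 4-coumarate:CoA ligase and the O-methyltransferases, had 0 members in the set. Of 9 tested, 5 had their highest section mean in section 3 and 2 in section 4. From section 3 to section 6, 5 fell and 1 rose, with a median of -1.18, and 3 fell without replicate 1 or with upper quartile scaling and 2 with all 75 libraries. In section 1 PAL1 (GRMZM2G074604) was already at 550 FPKM and comt (GRMZM5G814904) at 43.0, where Laccase-13 was at 0.333. The rule favours genes that are low in section 1, so this difference from a member follows from the choice.

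Cellulose synthases and brittle stalk genes, which build the wall's cellulose and arrange it, also had 0 members. Of 16 tested, 7 were highest in section 3, 4 in section 2, 3 in section 1 and 1 in section 4, and 8 fell and 0 rose from section 3 to section 6 (median -0.76). That count was 4 with all 75 libraries and 5 with a pseudocount of 0.1, with upper quartile scaling, and without replicate 1 or replicate 3. Of 10 expansins, proteins that loosen growing walls, 5 fell and 1 rose, and none was in the set.

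Wax and lipid transfer genes divided by where they peaked. Of 8 tested, 3 were highest in section 4, 1 in section 6 and the other 4 in sections 1 or 2. From section 3 to section 6, 3 rose and 4 fell, of which 2 fell with a pseudocount of 0.1. The genes that rose were gl4a, gl1 (GRMZM2G114642), a glossy gene of wax synthesis and candidate number 237, which rose by 1.33 ± 0.34 (limma adjusted p = 0.00191), and the lipid transfer protein gene plt1 (GRMZM2G101958), which rose by 1.48 ± 0.33 (limma adjusted p = 0.00033). All 3 were also called higher in section 8 than in section 2, which plt1 was not without replicate 1 (0.99, limma adjusted p = 0.0198).

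Of 3 peroxidases only PER66 was in the set, and 1 of the 3 fell from section 3 to section 6. Of 36 transporters and aquaporins LPE1 was in the set, and 8 fell and 8 rose. Of 4 wall-associated and receptor kinases WAK-RLK2 was in the set and was the 1 that fell. Neither the 32 MYB and NAC factors nor 112 other transcription factors had a member in the set; 4 and 19 of them peaked in section 4. Likewise 36 organelle RNA and ribosomal protein genes and 4 genes of chlorophyll and heme synthesis had 0 members. With 150 of 23051 tested genes in the set, these counts of 0 are near the share over all genes. Members without a descriptive name could not be placed in any list.

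Landmark genes of other processes changed over the same sections. From section 3 through section 4 to section 6, the mesophyll gene pep1 went from 440 to 982 to 1232 FPKM, and the bundle sheath gene ME1 from 315 to 752 to 1301. The chloroplast genes cab48 and rbcS went from 315 to 867 to 1060 FPKM and from 2463 to 3514 to 4263. The dividing-cell genes his2b5 and pcna2 were at 15.7 and 1.91 FPKM in section 4, down from 253 and 24.4 in section 1. The stress genes lox1, aos1 and hsp22 stood at 101, 30.8 and 665 FPKM in section 4, below their section 3 means of 141, 78.5 and 1012. None of the 9 landmarks was highest in section 4, and their part in the results was not tested.

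The choice was repeated with each replicate left out, and the newly chosen 150 genes were read in the replicate that had not been used. Without replicate 1, 2, 3 or 4, 135, 137, 139 and 139 of the original genes were chosen again. In the replicate left out, section 4 was the highest section for 131, 133, 133 and 134 of the 150 new genes (87.3% to 89.3%). The other candidates of the same choice were highest in section 4 in 66.8% to 79.2%, and all tested genes in 13.7% to 16.5%.

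With replicate 6 left out, 130 of the original genes were chosen again, and in replicate 6 section 4 was the highest for 131 of the new 150 (87.3%) and section 6 for 15. Replicate 6 has no section 3 library in use, so section 3 could not be the highest there. In replicates 1, 2, 3 and 4 section 3 was the highest for 5, 4, 7 and 8 of the new genes. The 87.3% of replicate 6 is therefore not on the same footing as the other replicates. The other candidates were highest in section 4 of replicate 6 in only 15.8%, and all tested genes in 4.75%. Section 4 of that replicate is the library that correlated slightly better with section 6 than with section 4.

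**Figure D5:**
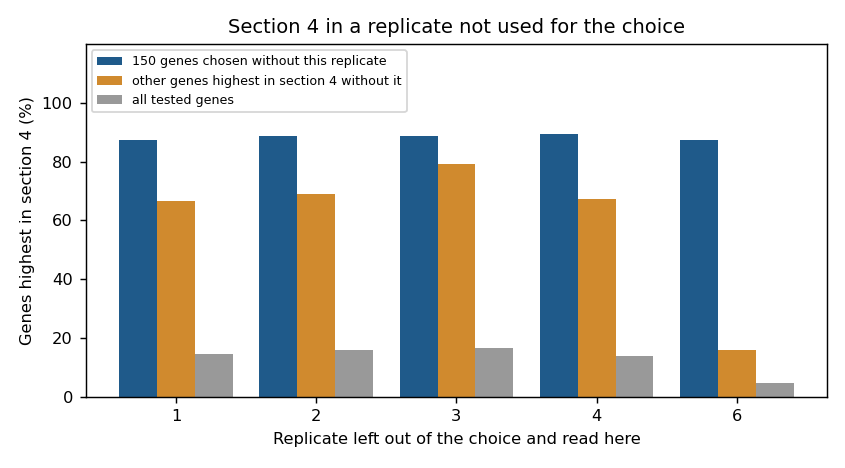
Percentage of genes whose highest section in a replicate was section 4, where that replicate had been left out of the choice, for the 150 genes chosen without it, the other candidates of that choice and all tested genes. The bars of the 150 genes stand between 87.3% and 89.3% in all 5 replicates, while those of the other candidates drop to 15.8% in replicate 6.

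Section 7, left out by the rule, gave one more reading. Only its replicate 1 approached the depth of the other libraries, at 0.871 times the median library. In it 142 of the 150 genes were lower than in section 6 of replicate 1 and 125 were higher than in section 8. Both conditions held for 122 genes (81.3%), against 26.6% of all tested genes. Genes that rise from section 6 to section 8 cannot meet both conditions. The 26.6% therefore leaves out rising genes with section 7 in between, and the contrast partly reflects the fall of the set. Over all tested genes 52.7% were below section 6 and 53.8% above section 8. The median gene of the set was at 12.4 FPKM in section 6, 2.85 in section 7 and 0.370 in section 8 of that replicate. This single library has no replicate check.

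The profile was not equally well measured for all members. In the libraries used, 114 genes were highest in section 4 in all 5 replicates, 27 in 4 of them and 9 in 3 or fewer. These values chose the genes, and the same count over all tested genes is not given. Replicate 6 was judged without section 3, whose library was left out. GRMZM2G005991 counts for all 5 replicates, yet its 122 FPKM in section 4 of replicate 6 was below every section 3 library used (219 to 287). For 13 genes the smallest value above 0 in any library used was at least 3 FPKM, and 9 of these were at 0 in 31 to 55 libraries. Of those 9, 7 were also among the 9 genes highest in section 4 in 3 or fewer replicates. Examples are GRMZM2G569889, at 0 in 53 libraries and never between 0 and 169 FPKM, and GRMZM2G516119, at 0 in 55 libraries and never between 0 and 55.8. The section means of such genes rest on a few values far from 0. GRMZM2G516119 and AC196480.3_FG005, both of this kind, are called genes of the comparison of section 6 with section 3, with log2 changes of -3.89 and 4.60.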

How the data were processed

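Strand-specific libraries of polyadenylated RNA were made from 75 maize leaf samples, per the labels. FPKM values of each species were deposited by the authors as 1 table. The tools named in the submitters' processing notes are TopHat2 2.0.10 and Cuffdiff 2.1.1, and the build named there is B73 RefGen_v3. Column names mapped every value column to a sample (0 left over). The values are not counts, so no count test was run and read depth is known only relatively, and intervals from counts are not given.

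Genes with a mean of at least 1 FPKM over the 68 libraries (23051) were fitted on log2(FPKM + 1), pseudocount 1, by limma (version 3.58.1, R version 4.3.3) using its trend option and one mean per section. Calls required a Benjamini-Hochberg adjusted p under 0.05 over all tested genes and a log2 change of 1 or more either way. Fold changes on this scale understate those of low genes. The members and lists were chosen with earlier results of these data known. Replicates are pools of plants, so p-values measure the spread between pools.

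The labels state that replicates were collected on different dates, so a replicate number marks a date. Deviations from section means correlated with a median r of 0.0147 within a number and -0.00448 between numbers. The fit without a replicate block is reported.

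The genes that may be named were set by a rule: ranks 1 to 10, the 3 genes on either side of the boundary, members with a reference name, the member with the highest section 4 mean, and the 5 largest called rises and falls of each comparison. The other genes of the pathway lists and the examples with many values at 0 were chosen after their values were seen. Names came from the Zm-B73-REFERENCE-NAM-5.0 table, whose build differs, so no coordinates are printed. A planned search of promoters for motifs was not run because no sequence was used here. Alternatives are listed in the closing section.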

Additional observations from a re-analysis of the deposited data

Results flagged for a closer look

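In a section with 4 or 5 libraries, a value was marked when its gap to the nearest other library was a large share of the section's range, a criterion that chance meets in about 1 of 20 groups. For the share of library FPKM held by the 150 genes, the section 4 library of replicate 6 was low at 1.42%, the section 8 library of replicate 2 was high at 0.339% and the section 14 library of replicate 2 was high at 1.10%. The same section 4 library, replicate 6, was the low one for Laccase-13 (317 FPKM), LPE1 (102 FPKM), PER66 (25.8 FPKM), Laccase-17 (17.6 FPKM) and GRMZM5G828770 (562 FPKM). These 5 genes share that library and are not independent marks.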

How the results depend on the processing

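No named gene with a call changed sign under any alternative run. For section 6 against 3, the 78 lower genes became 31 with a pseudocount of 0.1 and 29 with all 75 libraries. For section 8 against 2, quantile normalization gave 11 higher and 29 lower genes, and fitting only the 2 sections compared gave 1 higher. For section 15 against 11, 1 lower gene was called with quantile normalization and 1 without 4 libraries (section 12 replicate 4, section 14 replicate 2 and section 16 replicates 3 and 6), and 1 higher with only the 2 sections compared. The cause was not tested. Leaving out each replicate gave 5 to 8 higher and 61 to 84 lower genes for section 6 against 3, 1 to 4 higher and 54 to 90 lower for section 8 against 2, and 0 to 1 in each direction for section 15 against 11. The replicate block gave 8 higher and 77 lower, 3 and 78, and 0 and 0 in the 3 comparisons; among named genes it ended only the call of GRMZM5G826714 in section 6 against 3 (limma adjusted p = 0.0556). Upper quartile scaling turned the balance of calls over all tested genes in section 6 against 3 from 1245 higher and 2517 lower to 1908 and 1625, and quantile normalization that in section 8 against 2 from 2058 and 8238 to 3972 and 3965. Of the 150 genes, 128 were chosen again with a pseudocount of 0.1, 122 with all 75 libraries, 142 with upper quartile scaling, 150 with a minimum of 5 FPKM, 150 without those 4 libraries, 131 without replicate 6 of section 4, which is not one of the 4, and 130 to 139 without one replicate. The alternatives without section 8 replicate 2, without section 4 replicate 6 and with only the 2 sections compared were chosen after the data were seen. Over all single genes tested this way, 2840 values kept their direction and side of the threshold, 181 lost a call and 45 gained one. Depth was low in section 8, at 0.154 to 0.574 times the median library, and in some libraries of sections 9, 10, 14 and 16, while the libraries of sections 11 and 13 were at 0.812 to 1.87.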
